A study of Mus musculus with 10 samples.

Results

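The SLC25 mitochondrial carrier family was followed in regulatory T cells (Treg) after deletion of Tfam, which encodes the protein that packages mitochondrial DNA and is needed for its transcription. The members were every gene of the count table with a numbered Slc25a symbol, 47 genes, together with Ucp2, Mpc1, Mpc2, Mtch1 and Mtch2, without pseudogenes. This gave 52 genes of the 22553 in the table. Of these, 44 had enough reads to be tested, out of 11990 tested genes in all. They were grouped by the substrate each is known to carry.

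The cells were YFP-positive Treg sorted from pooled spleen and lymph node. The mice were female littermates on the C57BL/6 background. All of them were Foxp3 Yfp-Cre/+, so Cre was driven by Foxp3, the gene that defines the lineage. Foxp3 is X-linked, so in a heterozygous female the unsorted Treg also include cells without Cre, and the YFP sort selects those with it. Control mice were Tfam fl/+ and carried 1 floxed allele, so their sorted cells can lose 1 copy of Tfam. KO mice were Tfam fl/fl. Each RNA library pooled cells of 2 to 3 mice, and there were 3 libraries per genotype; the sources used here give no ages. The labels do not state that pools of one genotype came from separate sorts. The p-values therefore set the difference between genotypes against the variation between these pools, and some of that variation may be technical.

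SLC25 carriers are small proteins of the inner mitochondrial membrane that exchange metabolites, nucleotides and cofactors between the matrix and the cytosol. They include the exchangers that bring ADP and phosphate to ATP synthase and send ATP out, the shuttles that move reducing equivalents from the cytosol, and carriers for amino acids, folate, iron and coenzymes. The carriers are encoded in the nucleus, made in the cytosol and inserted by a dedicated translocase. Mpc1 and Mpc2 encode the pyruvate carrier, which is no SLC25 protein but serves the same membrane. Mtch1, Mtch2 and Slc25a46 encode family members of the outer membrane.

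Between 19087757 and 27490253 counts fell on genes in a library, and 55290 to 88185 of these on the carriers. Levels are given as CPM, a gene's counts relative to the library total, with totals scaled by the TMM method to make libraries comparable. Values of a group are always given in the order of replicates 1 to 3. They are not corrected for transcript length, so a CPM compares libraries and not genes. Tfam itself stood at 25.9, 30.6 and 42.4 CPM in the control libraries and 15.6, 14.4 and 16.5 CPM in the KO libraries (log2 fold change -1.09 ± 0.17, SE; edgeR adjusted p = 0.02, and 0.000125 with the replicate block). The groups did not overlap, although the call needed all libraries but control replicate 1 or 3: leaving out another one gave adjusted p-values from 0.0551 to 0.109. The 8 Treg markers, among them Foxp3, Cd4 and Il2ra, summed to 3300.1, 3138 and 3129.7 CPM in control and 3165, 3049 and 2996 CPM in KO. Of these markers, 6 had a fitted value below 0 (median log2 fold change of the 8, -0.13). EdgeR called 1 of them lower with the replicate block and 0 without it. Other RNA was present too. The 10 red pulp macrophage markers summed to 917 and 1324 CPM in the control and KO libraries numbered 2 and to between 418 and 548 CPM in the rest, and all 10 had a fitted value above 0 (median log2 fold change 0.34; 3 called higher by edgeR with the block). The 10 mitosis markers summed to 94.7 to 308 CPM in control and 61.3 to 138 CPM in KO libraries; all 10 had a fitted value below 0, and edgeR called 6 of them lower with the replicate block and 0 without it (3 at an unadjusted p under 0.05). Erythroid markers (6.92 to 17.3 CPM over 8 genes), neutrophil markers (0.136 to 1.35 CPM over 7) and CD8 T and NK cell markers (37.5 to 45.4 CPM over 7) were low. The 7 B cell markers summed to 552 to 579 CPM in control and 399 to 433 CPM in KO. That sum is nearly all Ighm. Pax5 had at most 19 counts in a library. Cd79b had 333, 391 and 293 counts in control and 291, 187 and 166 in KO. Of the 6 tested B cell markers, 3 had a fitted value below 0. EdgeR called 1 of the 6 lower without the block (adjusted p = 0.0134) and 2 with it. DESeq2 and limma-voom each called 1 lower. Of the 5 tested CD8 T and NK cell markers, edgeR without the block called 1 lower (adjusted p = 0.0451), DESeq2 called 1 and limma-voom 0. For comparison, edgeR called 1.39% of all tested genes lower and 0.100% higher without the block. With the block it called 4.39% lower and 1.97% higher. At an unadjusted p under 0.05 by edgeR without the block, 7.22% of all tested genes were lower. DESeq2 called 2.19% lower. The part of these other cells and of dividing cells in the carrier values was not tested. In bulk RNA a smaller number of cells of one type cannot be told apart from less RNA per cell.

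In summed level the carrier family lay just under the control range in KO. The summed CPM of all 52 genes was 3021, 3022 and 3221 in the control libraries and 2915, 2992 and 2901 in the KO libraries. The KO libraries are the 3 lowest, but KO replicate 2 lies close to control replicates 1 and 2. Ucp2, Slc25a3 and Slc25a5 supplied 61.4% of the carrier counts, a share that is not corrected for transcript length.

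By edgeR, 0 of the 44 carriers were called lower and 0 higher at an adjusted p under 0.05. The background over the whole fit was 1.39% of genes lower and 0.100% higher. The carrier with the smallest adjusted p, Slc25a27, stood at 0.104. At an unadjusted p under 0.05, 8 carriers were lower and 3 higher, which is 18.2% and 6.82% of the 44, against 7.22% and 5.40% of all tested genes. Groups did not overlap for 7 carriers lower in KO (15.9%, against 10.4% of all tested genes) and 4 higher (9.09%, against 8.63%). The median log2 fold change of the 44 was -0.07, against -0.0045 for all tested genes, and 65.9% of the carriers had a value below 0, against 51.2%. The 63 tested genes that work with the carriers, described further below, had a median of -0.06, with 71.4% below 0.

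Same-numbered control and KO libraries varied together, so the comparison was also made with the replicate number as a block, which compares each KO library with the control of its number. With the replicate block edgeR called 1 carrier lower, Slc25a53, and 4 higher, Slc25a22, Slc25a23, Slc25a27 and Slc25a37. Their identifiers in the count table are ENSMUSG00000044348, ENSMUSG00000019082, ENSMUSG00000046329, ENSMUSG00000023912 and ENSMUSG00000034248. The calls are 2.27% and 9.09% of the 44, beside 4.39% and 1.97% of all tested genes. DESeq2 without the block called 1 carrier, Slc25a27, higher, and 0 lower, with 0.634% of all tested genes called higher and 2.19% lower. With the block and pair 3 left out, 0 carriers were called by edgeR. The plot of the fold changes shows most carriers within 0.25 of 0 on the log2 scale, with wide intervals for those of low counts.

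**Figure D1:**
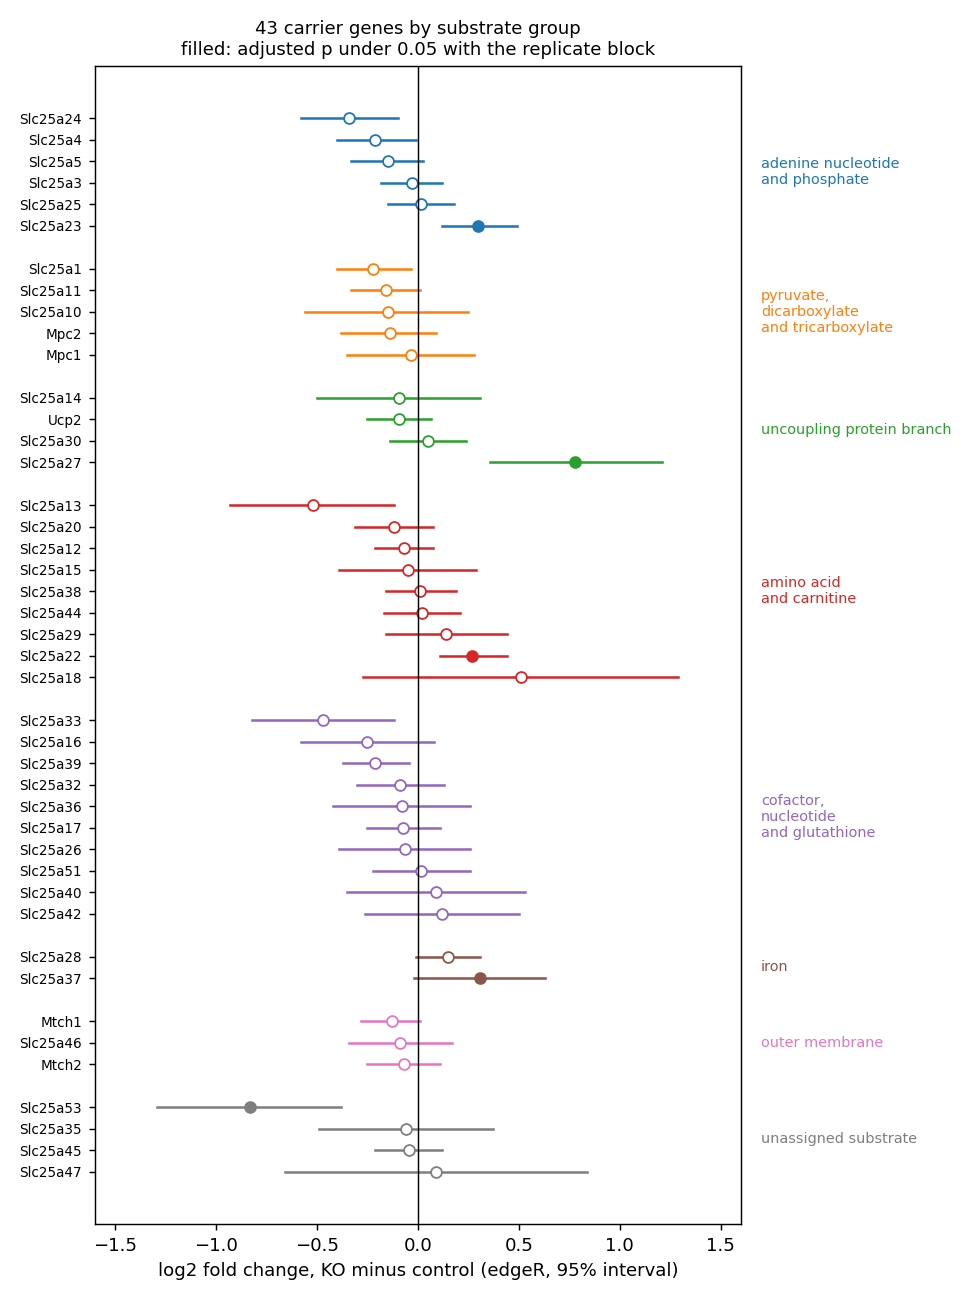
Log2 fold change, KO minus control, with its 95% interval from edgeR without the block (x axis), for 43 of the 44 tested carrier genes, sorted within 8 substrate groups (colours). Filled points are the 5 genes with an adjusted p under 0.05 with the replicate block. Slc25a53 at -0.83 and Slc25a27 at 0.78 lie farthest from 0.

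Carriers of adenine nucleotides and phosphate feed ATP synthase and set the nucleotide content of the matrix. Of the 8, 6 were tested. None was called by edgeR without the block (2 lower and 1 higher at an unadjusted p under 0.05; 0 by DESeq2 or limma-voom), and their median log2 fold change was -0.09. Slc25a4 and Slc25a5 encode the ADP/ATP exchangers ANT1 and ANT2. Slc25a4 stood at 103, 119 and 119 CPM in the control libraries and 96.2, 108 and 92.1 CPM in the KO libraries. The KO libraries are lower on average, but KO replicate 2 lies above control replicate 1 (log2 fold change -0.21 ± 0.09; edgeR adjusted p = 0.369). Slc25a5 stood at 226, 241 and 268 CPM in the control libraries and 211, 229.8 and 222 CPM in the KO libraries. Its groups also overlap, at -0.15 ± 0.08 with a 95% interval of -0.33 to 0.03. Slc25a3, which brings phosphate and copper into the matrix, stood at 488, 475 and 523 CPM in the control libraries and 470.2, 484 and 502 CPM in the KO libraries. The groups overlap widely (-0.03 ± 0.07, 95% interval -0.18 to 0.12).

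The ATP-Mg/phosphate carriers are calcium-regulated exchangers that adjust the adenine nucleotide pool, and their values lay on both sides of 0. Slc25a23 stood at 35.8, 30.3 and 31.3 CPM in the control libraries and 41.2, 39 and 40.1 CPM in the KO libraries. All KO libraries were above all control libraries. The fitted log2 fold change between groups was 0.30 ± 0.08, or 1.24-fold (edgeR adjusted p = 0.155, 0.0199 with the replicate block, and 0.084 by DESeq2 with the block). Its paralogue Slc25a24 stood at 18.1, 21 and 23 CPM in the control libraries and 16.8, 16.1 and 16.2 CPM in the KO libraries. Here all KO libraries lay below the controls (-0.34 ± 0.10; edgeR adjusted p = 0.218, and 0.064 with the block). The third paralogue, Slc25a25, stood at 32.2, 31.2 and 33 CPM in the control libraries and 32.6, 34.1 and 30.9 CPM in the KO libraries, with overlapping groups (0.02 ± 0.07). The count ratio of Slc25a23 to Slc25a24 within a library was 1.97, 1.44 and 1.36 in the control libraries and 2.45, 2.42 and 2.48 in the KO libraries. The KO ratios are nearly equal and all above the control ones; the ratio depends on transcript length, so its change, and not its size, can be read. Slc25a31, the testis form of the ADP/ATP exchanger, and Slc25a41 had 13 and 8 counts over all 6 libraries and were not tested.

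The 250 bases upstream of the annotated start of Slc25a23 and Slc25a24 are shown because the KO values of these paralogues lie on opposite sides of control, and those of Slc25a1, Slc25a13 and Slc25a33 because these 3 carriers, lower at an unadjusted p under 0.05, share an E-box. The sequences are RefSeq's for GRCm38.p6, read 5′ to 3′ on the gene's strand, with the first annotated start used for Slc25a23. Capitals mark matches on either strand to any of 8 motifs, none of which overlap in these windows. The E-box was searched as CACGTG. The GC box, a site of SP factors, was searched as GGGCGG. The ETS site was searched as CCGGAAG. The CCAAT box was searched by the letters of its name. The other motifs were CRE (TGACGTCA), the site of CREB, NRF1 (GCGCNTGCGC), ERR (TCAAGGTCA) and CARE (TGATGNAA), the site of ATF4.
Slc25a23, chr17:57059864-57060113, strand -: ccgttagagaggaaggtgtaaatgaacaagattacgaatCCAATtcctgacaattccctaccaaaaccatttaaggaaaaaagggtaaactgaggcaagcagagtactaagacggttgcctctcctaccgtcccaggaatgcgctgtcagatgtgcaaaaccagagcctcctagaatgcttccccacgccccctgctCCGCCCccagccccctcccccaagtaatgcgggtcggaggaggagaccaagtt
Slc25a24, chr3:109122899-109123148, strand +: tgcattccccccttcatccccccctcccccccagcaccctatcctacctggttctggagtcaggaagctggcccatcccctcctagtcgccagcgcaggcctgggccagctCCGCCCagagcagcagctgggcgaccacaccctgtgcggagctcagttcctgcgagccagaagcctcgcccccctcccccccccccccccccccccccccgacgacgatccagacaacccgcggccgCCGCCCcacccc
Slc25a1, chr16:17928220-17928469, strand -: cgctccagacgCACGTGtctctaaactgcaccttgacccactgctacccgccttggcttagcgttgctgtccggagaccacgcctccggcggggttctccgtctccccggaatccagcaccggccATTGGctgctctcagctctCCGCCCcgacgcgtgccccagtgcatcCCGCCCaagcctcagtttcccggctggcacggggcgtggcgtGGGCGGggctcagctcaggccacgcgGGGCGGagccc
Slc25a13, chr6:6217174-6217423, strand -: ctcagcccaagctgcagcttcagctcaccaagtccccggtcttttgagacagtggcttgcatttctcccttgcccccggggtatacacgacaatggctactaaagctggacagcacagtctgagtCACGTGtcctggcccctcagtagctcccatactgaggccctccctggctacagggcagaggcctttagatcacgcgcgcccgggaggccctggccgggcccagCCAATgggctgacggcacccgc
Slc25a33, chr4:149774268-149774517, strand -: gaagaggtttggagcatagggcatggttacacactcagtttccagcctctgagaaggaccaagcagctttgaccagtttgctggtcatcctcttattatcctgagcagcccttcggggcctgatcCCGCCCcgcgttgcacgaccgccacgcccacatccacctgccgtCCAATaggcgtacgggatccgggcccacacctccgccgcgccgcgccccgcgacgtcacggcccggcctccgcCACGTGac

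The printed upstream window of Slc25a23 holds a CCAAT box and a GC box, and that of Slc25a24 holds 2 GC boxes. The window of the other annotated start of Slc25a23, not printed, holds a CCAAT box and 2 GC boxes. Motifs were then counted per gene, a gene counting once if a window of any of its annotated starts held the motif. The table has windows for 35 tested carriers (1.31 starts a gene), 9348 tested genes (1.27) and 27025 genes in all (1.22). The E-box was held by 6 of the 35 carriers (17.1%, against 9.86% of the tested genes and 6.86% of all genes): Slc25a1, Slc25a13, Slc25a14, Slc25a15, Slc25a33 and Slc25a36. Slc25a14, Slc25a15 and Slc25a36 had log2 fold changes of -0.10, -0.05 and -0.08. Slc25a4, Slc25a24, Slc25a39 and Slc25a53, also lower at an unadjusted p under 0.05, have windows without an E-box. The printed carriers with an E-box were picked by both their values and the motif. The NRF1 motif, bound by a factor of many nuclear genes for mitochondria, lay upstream of Mtch2 and Slc25a3 (5.71% of the 35, against 9.61% of the tested genes and 4.23% of all). The ETS motif lay upstream of 7 (20%, against 16.5% of the tested genes and 7.83% of all). The GC box lay upstream of 27 (77.1%, against 63.2% and 35.4%) and the CCAAT box upstream of 18 (51.4%, against 40.8% and 37.5%). CRE was matched in 2 (5.71%, against 3.05% and 1.77%). The ERR motif (0.321% and 0.422%) and CARE (2.5% and 3.91%) were matched in 0 of the 35. A match is a description of the letters, and the motifs were chosen with the fold changes known.

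Carriers of pyruvate, dicarboxylates and tricarboxylates link the matrix to the cytosolic pools of carbon and reducing power. The 5 tested genes all had a fitted value below 0, with a median of -0.15; none was called by edgeR without or with the block (1 lower and 0 higher at an unadjusted p under 0.05; 0 by DESeq2 or limma-voom). Slc25a1 encodes the citrate carrier, which exports citrate for lipid synthesis and histone acetylation. It stood at 29.8, 30.01 and 32.5 CPM in the control libraries and 25.5, 28.4 and 25.5 CPM in the KO libraries. The KO libraries lie below the controls without overlap, the gap being smallest for KO replicate 2 (-0.22 ± 0.08; edgeR adjusted p = 0.314). Slc25a11, the oxoglutarate carrier of the malate-aspartate shuttle, stood at 84, 90.2 and 94 CPM in the control libraries and 76.7, 86.2 and 77.2 CPM in the KO libraries. Its groups overlap through KO replicate 2 (-0.16 ± 0.07; edgeR adjusted p = 0.421). Mpc1 and Mpc2 form the pyruvate carrier together. Mpc1 stood at 9.07, 11.6 and 9.21 CPM in the control libraries and 8.95, 10.6 and 9.66 CPM in the KO libraries (-0.04 ± 0.14). Mpc2 stood at 18.8, 23 and 21.3 CPM in the control libraries and 18.2, 20.6 and 18.4 CPM in the KO libraries (-0.14 ± 0.10). The groups overlap in both subunits. Slc25a10, the dicarboxylate carrier, was at -0.15 ± 0.18. Slc25a21, the oxodicarboxylate carrier, had 8 counts in all and was not tested.

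The uncoupling protein branch holds Ucp2 and its relatives, which can lower the proton gradient or export metabolites such as aspartate. Of its 4 tested genes, none was called by edgeR without the block (0 lower and 1 higher at an unadjusted p under 0.05; 0 by limma-voom, 1 by DESeq2), and the median log2 fold change was -0.02. Ucp2, which T cells express strongly, stood at 1151, 1110 and 1222 CPM in the control libraries and 1096, 1117 and 1052 CPM in the KO libraries. The groups overlap, and the log2 fold change was -0.09 ± 0.07, with a 95% interval of -0.25 to 0.07. Slc25a27 encodes UCP4, a form known from neurons, and its counts were low: 127, 81 and 103 counts in control and 160, 125 and 161 in KO. Its levels were 4.88, 3.68 and 3.76 CPM in the control libraries and 6.76, 6.09 and 8.45 CPM in the KO libraries. Every KO library was above every control library, and the fitted change between groups was 1.72-fold (0.78 ± 0.18, edgeR adjusted p = 0.104, and 0.0138 with the replicate block). DESeq2 called it higher without the block (adjusted p = 0.0278) and with it (adjusted p = 0.039). Within pairs 1 to 3 the log2 ratios were 0.47, 0.72 and 1.17, so pair 3 differed most. With the block it was called without pair 1 (edgeR adjusted p = 0.0171) or pair 2 (0.00731), but not without pair 3 (0.126). Slc25a14 and Slc25a30, the forms UCP5 and KMCP1, had log2 fold changes of -0.10 ± 0.18 and 0.05 ± 0.08.

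**Figure D2:**
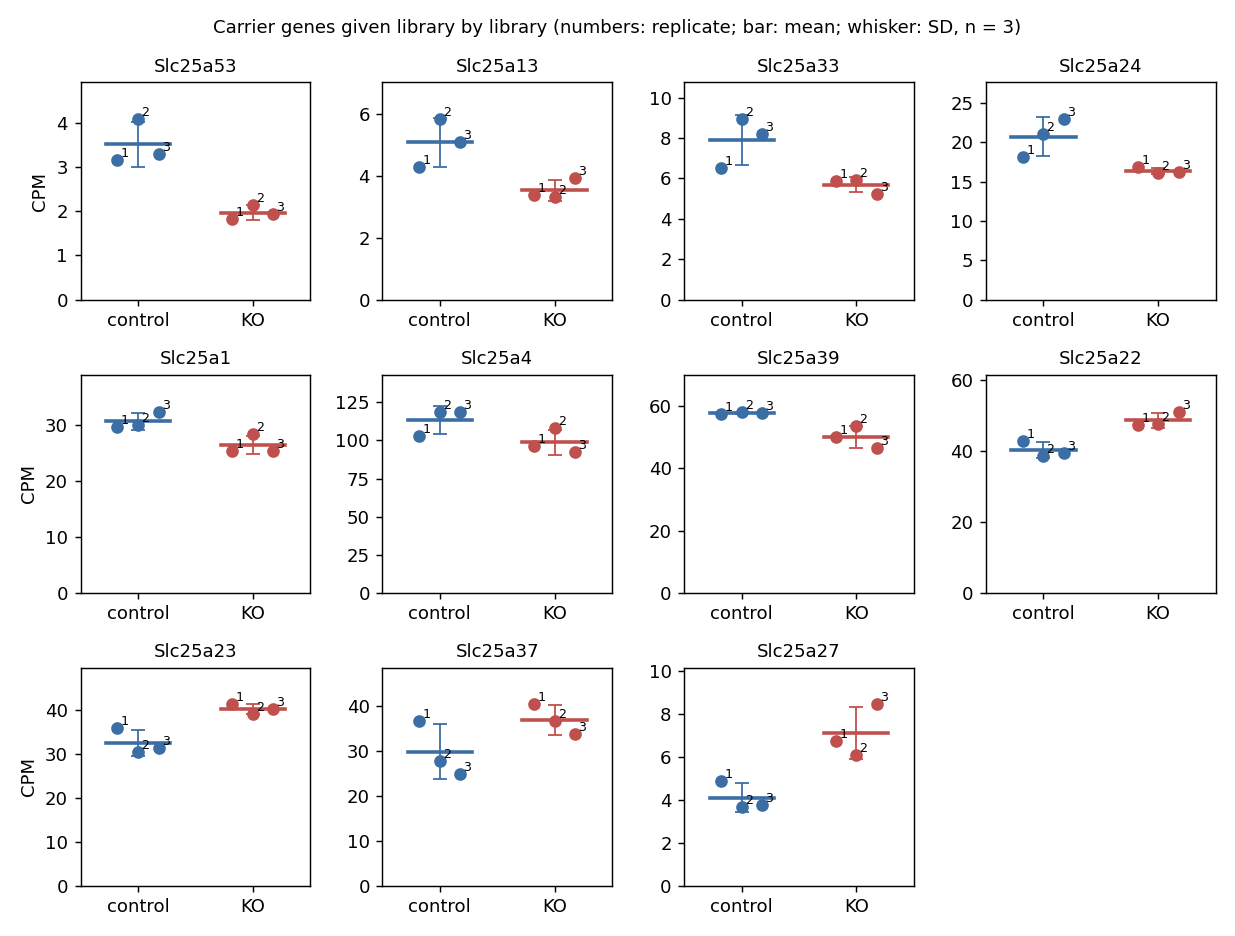
CPM in each library (y axes, from 0) for 11 carriers with an unadjusted p under 0.05 or a call with the replicate block, in control and KO. Points are libraries numbered by replicate, the bar is the mean and the whisker the SD (n = 3). Groups do not overlap except in Slc25a4 and Slc25a37.

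Carriers of amino acids and carnitine had 9 tested members of 10, with a median log2 fold change of 0.01. None was called by edgeR without the block (1 lower and 1 higher at an unadjusted p under 0.05; 0 by DESeq2 or limma-voom). Slc25a22 imports glutamate with a proton. It stood at 42.7, 38.4 and 39.3 CPM in the control libraries and 47.1, 47.6 and 51 CPM in the KO libraries. The KO libraries were the 3 highest. The fitted change between groups was 1.21-fold (0.27 ± 0.07, edgeR adjusted p = 0.15, 0.0315 with the replicate block, and 0.127 by DESeq2 with the block). Its paralogue Slc25a18 had only 158 counts in all and stood at 1.15, 1.14 and 0.584 CPM in the control libraries and 1.73, 1.27 and 1.05 CPM in the KO libraries; the groups overlap, and the interval of -0.27 to 1.29 on the log2 scale is wide. Slc25a12 and Slc25a13 encode the aspartate/glutamate carriers of the malate-aspartate shuttle, known as aralar and citrin. Slc25a12 stood at 97.8, 104 and 108 CPM in the control libraries and 97.4, 97.3 and 100.4 CPM in the KO libraries, with overlapping groups (-0.07 ± 0.06). Slc25a13 stood at 4.3, 5.86 and 5.11 CPM in the control libraries and 3.38, 3.31 and 3.94 CPM in the KO libraries, all KO libraries below all controls (-0.52 ± 0.18; edgeR adjusted p = 0.274, 0.0831 with the block). The count ratio of Slc25a12 to Slc25a13 was 22.7, 17.7 and 21.1 in the control libraries and 28.8, 29.4 and 25.5 in the KO libraries, without overlap.

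The carnitine/acylcarnitine carrier Slc25a20, which brings fatty acids to oxidation, had a log2 fold change of -0.12 ± 0.08, and Slc25a38, which imports glycine for haem synthesis, of 0.01 ± 0.08. The branched-chain amino acid carrier Slc25a44 (0.02 ± 0.08), the ornithine carrier Slc25a15 (-0.05 ± 0.15) and the basic amino acid carrier Slc25a29 (0.14 ± 0.13) had adjusted p-values of at least 0.706 by edgeR. Slc25a2, a second ornithine carrier, had 48 counts over all libraries and was not tested.

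Cofactor, nucleotide and glutathione carriers were 11, all tested, with a median log2 fold change of -0.08, 3 lower and 0 higher at an unadjusted p under 0.05, and 0 called by edgeR with or without the block or by DESeq2 or limma-voom. Slc25a33, a pyrimidine nucleotide carrier that serves mitochondrial DNA and RNA synthesis, stood at 6.53, 8.96 and 8.22 CPM in the control libraries and 5.87, 5.94 and 5.25 CPM in the KO libraries. Every KO library lay below every control, although control replicate 1 was close to them (-0.47 ± 0.15; edgeR adjusted p = 0.249, 0.0728 with the block). Its paralogue Slc25a36 stood at 5.49, 6.5 and 5.63 CPM in the control libraries and 5.83, 4.87 and 5.98 CPM in the KO libraries, with overlapping groups (-0.08 ± 0.15). Slc25a39, needed for glutathione import, stood at 57.4, 58.3 and 57.7 CPM in the control libraries and 50.2, 53.5 and 46.6 CPM in the KO libraries. The controls were nearly equal and all above the KO libraries (-0.21 ± 0.07; edgeR adjusted p = 0.276, 0.0679 with the block). Slc25a40, its paralogue, stood at 7.95, 8.14 and 11.6 CPM in the control libraries and 8.82, 8.62 and 12.1 CPM in the KO libraries. Replicate 3 was its highest library in both genotypes (0.09 ± 0.19).

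The remaining cofactor carriers had log2 fold changes between -0.25 and 0.12, both from genes linked to coenzyme A transport, Slc25a16 and Slc25a42. Slc25a51, the NAD+ carrier, was at 0.02 ± 0.10 and Slc25a32, the folate and FAD carrier, at -0.09 ± 0.09. Slc25a26, which imports S-adenosylmethionine for methylation in the matrix, was at -0.06 ± 0.14, and Slc25a17, a carrier of the peroxisomal membrane, at -0.07 ± 0.08.

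The iron carriers mitoferrin 2 and mitoferrin 1 are encoded by Slc25a28 and Slc25a37 and supply iron for haem and iron-sulphur clusters. Their summed CPM was 80, 71.5 and 65.5 in the control libraries and 85.5, 85.8 and 80.8 in the KO libraries. All KO libraries lay above all controls, although KO replicate 3 was close to control replicate 1. Neither gene was called by edgeR without the block (0 at an unadjusted p under 0.05, and 0 by DESeq2 or limma-voom). Slc25a37 stood at 36.8, 27.8 and 25 CPM in the control libraries and 40.4, 36.7 and 33.7 CPM in the KO libraries. Control replicate 1 lies above KO replicate 3, so the groups overlap, and the log2 fold change was 0.31 ± 0.14 (edgeR adjusted p = 0.424). Within pairs 1 to 3 its log2 ratios were 0.13, 0.4 and 0.43, and edgeR called it higher with the replicate block (0.32 ± 0.08, adjusted p = 0.0323), while DESeq2 with the block did not (adjusted p = 0.107). Erythroid cells express mitoferrin 1 strongly; the erythroid markers summed to 6.92, 9.77 and 11.1 CPM in control and 17.3, 8.96 and 9.71 CPM in KO. Red pulp macrophages also handle iron, and their markers summed to 418, 917 and 494 CPM in control and 548, 1324 and 479 CPM in KO. The part of these cells in the Slc25a37 values was not tested. Slc25a28 stood at 43.2, 43.7 and 40.4 CPM in the control libraries and 45.1, 49.2 and 47.1 CPM in the KO libraries, without overlap (0.15 ± 0.07; edgeR adjusted p = 0.42).

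**Figure D3:**
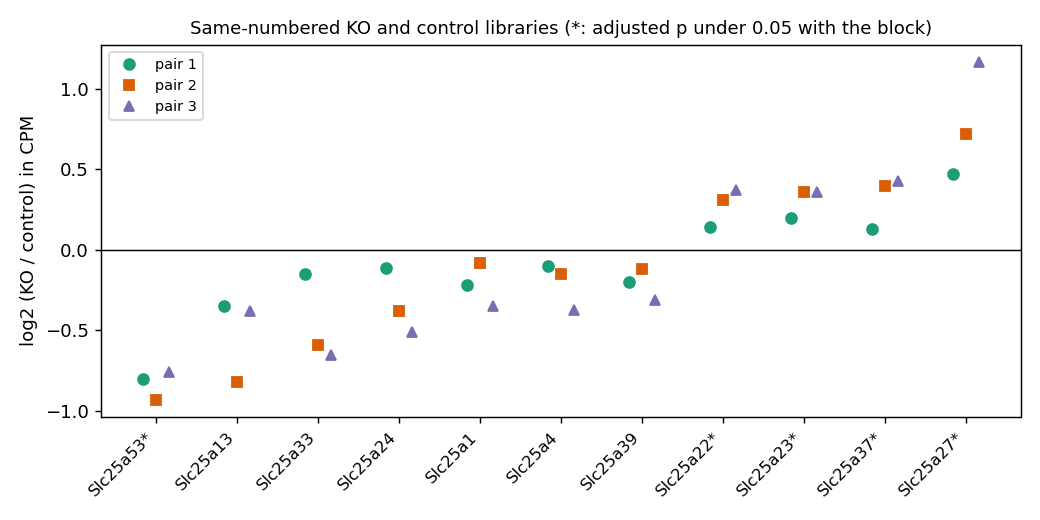
Log2 ratio of the CPM of each KO library to the control library of the same number (y axis) for the same 11 carriers (x axis), with 1 symbol per pair. In each of the 11 genes all 3 pairs lie on one side of 0. The genes were picked by their p-values in these same libraries, which favours pairs that agree. The share of such agreement among other genes was not computed.

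Outer membrane members had log2 fold changes of -0.13 ± 0.06 for Mtch1, -0.07 ± 0.08 for Mtch2, which inserts proteins into that membrane, and -0.09 ± 0.11 for Slc25a46, which acts in fission and lipid exchange. None was called by edgeR with or without the block (0 at an unadjusted p under 0.05; 0 by DESeq2 or limma-voom). Mtch1 stood at 74.3, 77.5 and 79.9 CPM in the control libraries and 67.3, 72.4 and 71.5 CPM in the KO libraries, without overlap. Its fitted change between groups was 1.1-fold (edgeR adjusted p = 0.428). Mtch2 stood at 44.8, 50.9 and 51.8 CPM in the control libraries and 44.7, 47.9 and 48.1 CPM in the KO libraries, and its groups overlap.

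Members with no assigned substrate include Slc25a53, the carrier with the lowest log2 fold change. It had 82, 90 and 90 counts in control and 43, 44 and 37 in KO, or 3.15, 4.09 and 3.29 CPM in the control libraries and 1.82, 2.14 and 1.94 CPM in the KO libraries. All KO libraries lay below all controls, and the fitted change between groups was 1.78-fold (-0.83 ± 0.20, edgeR adjusted p = 0.11). The replicate block gave an adjusted p of 0.0198 by edgeR and 0.191 by DESeq2; with the block and pair 1, 2 or 3 left out, edgeR's adjusted p was 0.0843, 0.0517 and 0.0857. The gene overlaps Zcchc18, which RefSeq places on the opposite strand. Zcchc18 was called lower by edgeR (-1.22 ± 0.14, 2.33-fold; adjusted p = 0.00668), from 8.88, 10.8 and 9.1 CPM in control to 4.1, 3.85 and 4.41 CPM in KO. The strand setting of the counting is not given in the sources used here, so the reads of these genes may not be separable, and the part of Zcchc18 in the value of Slc25a53 was not tested. Slc25a45 stood at 39, 42.8 and 43.5 CPM in the control libraries and 40.2, 41.6 and 39.5 CPM in the KO libraries, with overlapping groups (-0.05 ± 0.07). Slc25a35 was at -0.06 ± 0.19 and Slc25a47 at 0.09 ± 0.33, the latter with an interval of -0.66 to 0.84. None of the 4 tested genes of this group was called by edgeR without the block (1 lower and 0 higher at an unadjusted p under 0.05; 0 by DESeq2 or limma-voom). Slc25a43 had 11, 15 and 9 counts in control and 7, 4 and 4 in KO and was not tested, Slc25a34 had 8 counts in all, and Slc25a48 and Slc25a54 had 0 in every library.

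The other 3 calls with the block were also lost in fits with some pairs left out, which have fewer libraries. Slc25a22 was called by edgeR with the block and pair 1 left out (adjusted p = 0.0313) but not without pair 2 (0.0842) or pair 3 (0.163). For Slc25a23 these values were 0.0318, 0.0658 and 0.104, and for Slc25a37 they were 0.0207, 0.0962 and 0.168. Without pair 2, Slc25a27 was the 1 carrier called with the block, and without pair 3 none was. The blocked log2 fold changes of Slc25a22, Slc25a23 and Slc25a37 were 0.27, 0.31 and 0.32 with all pairs. They were 0.26, 0.28 and 0.27 without pair 2, and 0.22, 0.28 and 0.26 without pair 3. Pair 2 holds the 2 libraries with the most macrophage RNA, and the part of that RNA in these calls was not tested.

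Balance between paralogues is independent of library scaling, since both counts come from one library. Besides Slc25a23 with Slc25a24 and Slc25a12 with Slc25a13, the ratio of Slc25a23 to Slc25a25 was higher in every KO library (1.11, 0.971 and 0.949 in control, 1.27, 1.15 and 1.3 in KO). The ratio of Mtch1 to Mtch2 was lower in every KO library, with control at 1.66, 1.52 and 1.54 and KO at 1.51, 1.51 and 1.49. Its group means differed by 0.07 on the log2 scale, and control replicate 2 lay close to the KO libraries. The 6 other ratios overlapped, among them Slc25a4 to Slc25a5 (0.465 ± 0.0268 in control and 0.446 ± 0.0272 in KO, SD, n = 3 each) and Mpc1 to Mpc2 (0.473 ± 0.0375 and 0.51 ± 0.0158). The ratios of Slc25a23 to Slc25a24 and to Slc25a25 share a gene and are not independent. Slc25a23, Slc25a24, Slc25a13 and Mtch1 were each without overlap in CPM, so their ratios repeat those values in part. The share of ratios without overlap among other genes was not computed. With 3 libraries a group no exact permutation p can fall below 0.10, so these ratios are a description.

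**Figure D4:**
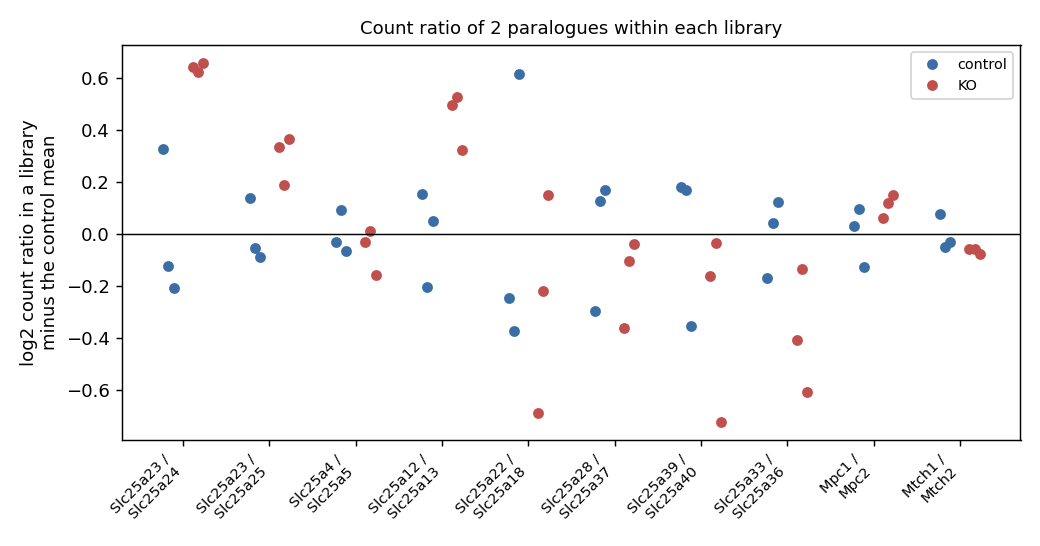
Log2 of the count ratio of 2 paralogues in each library minus the mean of the 3 control libraries (y axis), for 10 combinations (x axis). Points are libraries; control and KO do not overlap for Slc25a23 with Slc25a24, Slc25a23 with Slc25a25, Slc25a12 with Slc25a13 and Mtch1 with Mtch2.

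The genes that work with the carriers were counted in the same fit. Of 68 listed genes, 63 were tested; 0 were called lower and 0 higher by edgeR with or without the block, with 2 lower and 1 higher at an unadjusted p under 0.05 and 0 called by DESeq2 or limma-voom. At that unadjusted p the shares of the 63 were 3.17% lower and 1.59% higher, against 7.22% and 5.40% of all tested genes. The median log2 fold change of the 63 was -0.06. Of the 63, 71.4% had a value below 0, against 65.9% of the tested carriers and 51.2% of all tested genes. The import machinery that inserts carriers, from the receptor Tomm70a (-0.07 ± 0.11) and the pore Tomm40 (-0.08 ± 0.10) to the TIM22 translocase, had a median of -0.07 over 13 genes. The outer membrane channels Vdac2 and Vdac1 were at -0.07 ± 0.10 and -0.05 ± 0.07. Among 16 other inner membrane transporters, with a median of -0.10, Letm1, an ion exchanger, was at -0.10 ± 0.07, and Sfxn3, a sideroflexin, at 81 ± 1.66 CPM in the control and 81 ± 4.47 CPM in the KO libraries (SD, n = 3 each). Smdt1, a subunit of the calcium uniporter, and Sfxn1, the serine carrier, were the 2 lower genes at an unadjusted p under 0.05, at -0.20 ± 0.06 and -0.23 ± 0.09 (edgeR adjusted p = 0.248 and 0.355).

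Enzymes on either side of the carriers also had medians near 0. Acly, which splits the citrate that Slc25a1 exports, stood at 484 ± 20.9 CPM in the control and 463 ± 15.7 CPM in the KO libraries and Mdh2, the matrix malate dehydrogenase, at 304 ± 2.98 CPM in the control and 292 ± 24.3 CPM in the KO libraries (SD, n = 3 each), and the 14 tested enzymes of pyruvate, citrate and the shuttles had a median of -0.05. The 8 tested enzymes of amino acids and carnitine had a median of 0.01; Glud1, a glutamate enzyme, was at -0.05 ± 0.11, and Bcat2, the mitochondrial branched-chain aminotransferase, at 0.17 ± 0.07 (edgeR adjusted p = 0.322). The 9 tested enzymes of folate, haem and iron-sulphur clusters had a median of -0.07, with Mthfd1l at -0.04 ± 0.07 and Shmt2 at 0.07 ± 0.07.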

How the data were processed

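The values were read counts per gene, deposited by the authors as 1 table with 1 column per RNA library and described as HTSeq counts per the labels; the submitters' processing notes also name HISAT2 and the builds mm10 and mm9. Which annotation HTSeq used, and whether it counted by strand, is not given in the sources used here. ATAC-seq libraries were not analysed here. Of 22553 Ensembl genes, 22522 matched a symbol. Genes kept by filterByExpr (minimum count 10, minimum total 15; 11990 genes) were fitted with edgeR 4.0.16 in R 4.3.3, with TMM scaling and a quasi-likelihood F test of KO against control. P-values were Benjamini-Hochberg adjusted over all tested genes, with a call at an adjusted p under 0.05. SEs come from the F statistic. Log2 fold changes are KO minus control. A count of 3 equals 0.109 to 0.157 CPM. The alternatives used DESeq2 1.42.0, limma 3.58.1 (voom), the replicate block, other scalings and left-out libraries.

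Same-numbered libraries deviated together from their group means (correlations 0.33, 0.56 and 0.55 over genes, against -0.54 to -0.03 for other combinations). Deviations within a group cancel out for each gene, so positive correlations in some combinations bring negative ones in others. The numbers were taken to pair the samples for the block. This pairing comes from the same data as the calls with the block, not from the labels. Libraries of one group differed by more than sampling noise (chi-square per degree of freedom 8.75 to 27.4) and each was counted once. Upstream sequences and gene overlaps are from RefSeq, GRCm38.p6, where all 52 members were found by symbol; 5 of the 44 tested overlap another tested gene. Genes given library by library were those with an unadjusted p under 0.05, a call with the block, or the highest CPM of their group. Their paralogues were given the same way. Of the listed partner genes, the 2 of highest CPM per list were named, with those at an unadjusted p under 0.05 added after their values were seen. For 1 carrier that meets this rule, and a few listed genes, no value is reported here, although they enter the counts and medians. The members and gene lists were chosen with earlier results of these data known.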

Additional observations from a re-analysis of the deposited data

How the results depend on the processing

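Called carriers numbered 0 lower and 0 higher in every fit without the block that used edgeR or limma-voom, including those with DESeq2 size factors, library totals only, no filter on low counts, each library left out, or both libraries numbered 2 left out. The replicate block gave 1 lower and 4 higher in edgeR; DESeq2 gave 1 higher without and 1 higher with it. With the block and a pair left out, chosen after seeing the data, 4 were higher without pair 1, 1 without pair 2 and 0 without pair 3, and 0 were lower. The carriers' median log2 fold change lay between -0.086 and -0.045 in all fits.

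Over all genes, 526 were lower and 236 higher with the block, 262 and 76 by DESeq2, 298 and 136 by DESeq2 with the block, and 54 and 0 without both libraries numbered 2. With the block and pair 1, 2 or 3 left out these were 335 and 205, 496 and 208, and 309 and 66. The main counts were 167 and 12; limma-voom called 3 higher and library totals only 7. With 1 library left out, 26 (KO replicate 1) to 166 were lower and 0 to 10 higher. The cause was not tested.

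Of the 19 carriers refitted singly, Slc25a3 ranged from -0.059 to 0.012 with 1 library left out (0.012 without control replicate 3, 0.001 without KO replicate 1), and Slc25a45, at -0.046 in the chosen fit, ranged from -0.08 to 0.0022 over the alternatives, the latter with the block and without pair 3. The other 17 kept their direction in all 17 alternatives. Intervals are widest for carriers of few counts, such as Slc25a18 (-0.27 to 1.29 on the log2 scale) and Slc25a47 (-0.66 to 0.84), so depth limits what can be said of them.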

Other observations

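The fall of Zcchc18 beside Slc25a53 was present in each pair, with log2 ratios of -1.12, -1.49 and -1.05 in pairs 1 to 3 against -0.8, -0.93 and -0.76 for Slc25a53. Zcchc18 had 231, 237 and 249 counts in control and 97, 79 and 84 in KO. Slc25a53 and Zcchc18 were both below control in all 3 KO libraries.

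Of the other tested carriers that overlap a tested gene, Slc25a11 (-0.16 ± 0.07) overlaps Rnf167 on the opposite strand, which was higher in all 3 KO libraries at 0.14 ± 0.06 (edgeR adjusted p = 0.377). Slc25a25 (0.02 ± 0.07) overlaps Naif1, at 0.22 ± 0.12 (edgeR adjusted p = 0.506). Slc25a26 overlaps Lrig1 (-0.03) and Slc25a35 overlaps Rangrf (0.08).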
